A study of Mus musculus with 12 samples.

Results

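Retinoid metabolism and transport genes were followed through TT2 mouse embryonic stem cells. The group holds 7 of the 17901 genes in the deposited table, taken as a fixed list by name: Rbp4, Stra6, Rdh10, Dhrs3, Aldh1a2, Cyp26a1 and Cyp26b1. All 7 passed the filter on low values, as did 15750 genes in all. The series was built to ask what RLF and ZFP292, a pair of zinc finger proteins, do to gene expression. Cells lacking both genes (double knockout, DKO) and wild-type cells (WT) were compared in 4 groups of 3 libraries. These were DKO after 72 hours in 5 µM retinoic acid (RA) without LIF, WT after the same treatment, DKO kept in ES medium with LIF (Serum/LIF in the series, serum/LIF here), and WT in serum/LIF. The serum/LIF medium held knockout serum replacement and FBS, and the RA medium was the same without LIF. No group lacked both LIF and RA, so RA and the withdrawal of LIF cannot be told apart here. Changes given below as with RA are differences from serum/LIF. The labels give 3 biological replicates per group and do not say whether the DKO cells are 1 clone or several.

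Retinol travels in blood bound to RBP4 and can enter cells through the membrane receptor STRA6. Inside, RDH10 oxidises retinol to retinaldehyde, DHRS3 reduces retinaldehyde back to retinol, and ALDH1A2 oxidises retinaldehyde to RA. CYP26A1 and CYP26B1 hydroxylate RA and so start its clearance. RA binds nuclear receptors of the RAR family, which pair with RXR on direct repeats of a hexamer in DNA, and in embryonic stem cells it is widely used to drive differentiation. Here RA was added to the medium of the RA groups only, and neither its level nor its synthesis by the cells was measured.

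The libraries held 30869766 to 40236799 reads in genes. Rlf had 1 read in the DKO libraries after RA against 8426 in WT, while the serum/LIF libraries held 6 in DKO against 10999 in WT. Zfp292 had 0 reads in all DKO libraries, while WT had 10237 after RA and 14965 in serum/LIF. A list of 12 pluripotency markers summed to 8630.3 to 9215 normalized counts in DKO and 5109 to 5263 in WT after RA. Their serum/LIF sums were 141433 to 144375 in DKO and 165440.4 to 168791 in WT, and no marker was at 0. Replicate 2 of WT after RA stood apart: rRNA-class repeats took 41.7% of its repeat reads, against 4.14% to 7.28% in the other libraries. Calls on the genotype difference after RA are also given without that library, and those outside the 7 genes were recomputed without it after the data had been seen.

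The genes lie on chromosomes 19 (Cyp26a1 and Rbp4), 9 (Stra6 and Aldh1a2), 6, 4 and 1 of mm10. Cyp26a1 (NM_007811.2, 37697808 to 37701536) starts 4500 bases from the end of its paralog Cyp26c1, and Rbp4 (NM_011255.3, 38116620 to 38124811) lies 415083 bases further on. Stra6 (NM_001162476.1, 58134075 to 58153997) and Aldh1a2 (NM_009022.4, 71215789 to 71296243) are 13061791 bases apart. Cyp26b1 (NM_001177713.1) spans 84571414 to 84593908 on chromosome 6, Dhrs3 (NM_011303.7) spans 144893077 to 144928209 on chromosome 4, and Rdh10 (NM_133832.3) spans 16105882 to 16132550 on chromosome 1.

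RefSeq promoter windows on GRCm38.p6, from 250 bases before to 50 bases after a start site, were at hand for 6 of the 7 genes (12 windows, none for Rdh10). They were searched on both strands for direct repeats of the half-site AGGTCA or one of its variants (AGTTCA beside the forms GGGTCA and also GGTTCA) with 1, 2 or 5 bases between the copies, the form that RAR and RXR pairs are known to bind. The windows of 3 genes are shown: Cyp26a1, the only one of the 6 genes with such a repeat in a window, its isozyme Cyp26b1, and Stra6, the gene with the largest difference between DKO and WT. The Cyp26a1 window is chr19:37697558-37697857 (plus strand), that of Cyp26b1 chr6:84593761-84594060 (minus strand, start site 98 bases from that of the table), and that of Stra6 chr9:58133825-58134124 (plus strand). Each is written 5′ to 3′ on its gene's strand, and capitals mark the half-sites of the repeat.
Cyp26a1: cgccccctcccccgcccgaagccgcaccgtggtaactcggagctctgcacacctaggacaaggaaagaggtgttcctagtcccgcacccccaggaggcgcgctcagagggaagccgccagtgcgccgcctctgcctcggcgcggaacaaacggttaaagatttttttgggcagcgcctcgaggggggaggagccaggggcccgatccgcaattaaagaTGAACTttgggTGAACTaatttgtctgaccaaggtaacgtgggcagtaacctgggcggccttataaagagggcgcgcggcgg
Cyp26b1: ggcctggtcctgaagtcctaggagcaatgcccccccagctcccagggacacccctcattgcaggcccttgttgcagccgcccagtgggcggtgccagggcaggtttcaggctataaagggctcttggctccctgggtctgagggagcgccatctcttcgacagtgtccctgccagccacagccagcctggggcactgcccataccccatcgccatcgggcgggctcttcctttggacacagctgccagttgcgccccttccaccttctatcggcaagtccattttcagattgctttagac
Stra6: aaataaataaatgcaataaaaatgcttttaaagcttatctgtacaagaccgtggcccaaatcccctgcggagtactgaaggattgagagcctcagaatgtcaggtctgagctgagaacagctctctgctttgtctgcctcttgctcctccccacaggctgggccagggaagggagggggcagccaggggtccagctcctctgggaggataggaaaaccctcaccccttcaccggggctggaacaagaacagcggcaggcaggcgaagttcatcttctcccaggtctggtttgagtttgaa

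The Cyp26a1 repeat has a spacer of 5 bases and reads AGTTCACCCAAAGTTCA on the opposite strand, at chr19:37697776-37697792, which puts it 15 bases upstream of the start site. Among all RefSeq windows, 32 of 32851 (0.0974%) held a repeat spaced by 5 bases, and these belong to 31 of 27025 genes. Of those 31 genes, 9 were tested here, and with RA 3 were higher and 2 lower in DKO, while 5 were higher and 3 lower in WT. Of all genes tested, 78.3% were called with RA in DKO and 80.6% in WT. Rarb, which encodes an RA receptor, Cyp26a1 and Ppbp, which encodes a chemokine, were higher with RA in both genotypes. In the window at or nearest to the table's start site, Aldh1a2 had 78.0% GC with 50 CpG and Rbp4 72.0% with 40, against 62.3% with 26 for Cyp26a1, 62.3% with 9 for Cyp26b1, 53.0% with 5 for Stra6 and 45.0% with 10 for Dhrs3. Genes with further windows spread widely: the others held 58.7% with 21 and 45.3% with 9 for Dhrs3, 40.7% with 5 for Rbp4, and 55.7% with 5, 61.3% with 10 and 61.3% with 5 for Stra6. Over all windows the medians were 52.7% and 7.

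Nearly the whole group rose with RA, with rises of 55.8-fold to 931-fold for Cyp26b1, Dhrs3, Cyp26a1 and Stra6. In DKO 6 of the 7 genes rose, all but Aldh1a2 (78.3% of all genes called, 40.2% higher). In WT all 7 rose (80.6% of all genes called, 41.4% higher). DKO and WT then differed most at Stra6, which reached 1583 ± 48.5 normalized counts in DKO after RA and 7669.5 ± 215 in WT (SD, n = 3 each). Rbp4, Dhrs3 and Aldh1a2 were also lower in DKO after RA and Rdh10 was higher. Cyp26b1 was 1.54-fold higher in DKO after RA without overlap, which passed some tests but not limma's over all 12 libraries. In serum/LIF, by contrast, Dhrs3, Aldh1a2 and Rdh10 were higher in DKO and Stra6 was lower. In these bulk libraries, fewer cells of a type and less RNA per cell cannot be told apart.

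**Figure D1:**
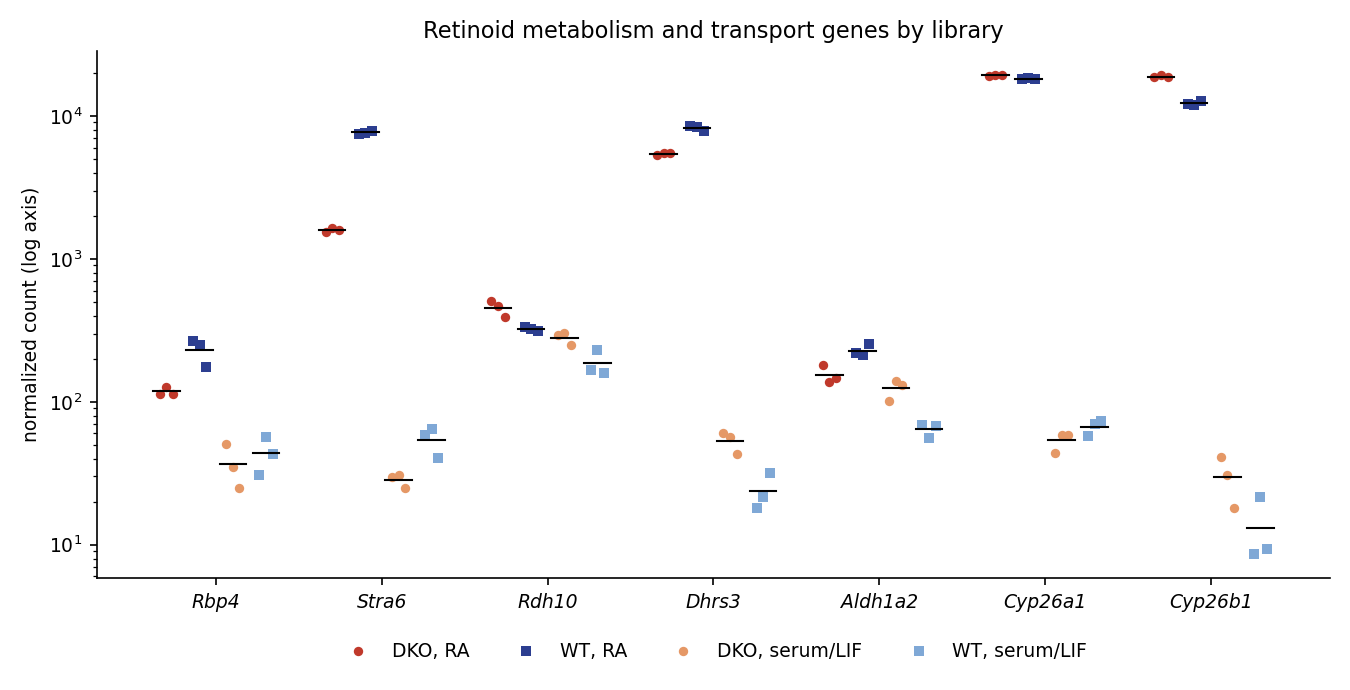
Normalized counts (log axis, not divided by transcript length) of the 7 genes in each of the 12 libraries; each point is a library, bars are group means, and groups run DKO after RA, WT after RA, DKO in serum/LIF, WT in serum/LIF. Stra6 lies at 1535 to 1632 in DKO and 7483 to 7905 in WT after RA, while Rdh10 and Aldh1a2 stay within 55.9 to 505 in all groups.

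Of the 2 transport genes, Rbp4 had 113, 128 and 114 normalized counts in DKO after RA, against 267, 248 and 174 in WT after RA. In serum/LIF the DKO libraries had 50.4, 35.2 and 24.8 and the WT libraries 30.6, 56.9 and 43.0. The 3 DKO libraries lay below the 3 WT libraries after RA, and the genotypes overlapped in serum/LIF. Rbp4 was 1.95-fold lower in DKO after RA (limma log2 fold change −0.93 ± 0.26, SE; Benjamini-Hochberg adjusted p = 0.00555), and −0.87 without replicate 2 of WT after RA (limma adjusted p = 0.0244). The serum/LIF difference did not pass the test (−0.25 ± 0.26, limma adjusted p = 0.505), and the test of the change in the genotype difference with RA gave −0.69 ± 0.37 (limma adjusted p = 0.17; −0.62 without replicate 2 of WT after RA, 0.269). With RA, Rbp4 rose 3.21-fold in DKO (1.71 ± 0.26) and 5.28-fold in WT (2.39 ± 0.26).

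Stra6 had 1535, 1632 and 1582 normalized counts in DKO after RA, against 7483, 7621 and 7905 in WT after RA. In serum/LIF it had 29.8, 30.5 and 24.8 in DKO and 58.3, 64.5 and 40.2 in WT. DKO lay below WT with no overlap in either medium. The difference was 4.84-fold after RA (limma log2 fold change −2.28 ± 0.13, adjusted p = 1.17e-12; −2.28 without replicate 2 of WT after RA) and 1.91-fold in serum/LIF (−0.89 ± 0.13, adjusted p = 7.57e-06). By size, the difference after RA ranked within the top 1.86% of the 15750 genes tested. Stra6 rose 55.8-fold with RA in DKO (5.76 ± 0.13) and 141-fold in WT (7.14 ± 0.13), and the smaller rise in DKO passed the test of the difference between genotypes (−1.38 ± 0.18, limma adjusted p = 3.01e-06; −1.39 without that library).

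Rdh10, which makes retinaldehyde, had 505, 467 and 393 normalized counts in DKO after RA, against 335, 321 and 315 in WT after RA. In serum/LIF there were 292, 303 and 248 in DKO and 167, 229.9 and 159.9 in WT. The DKO libraries were above the WT libraries in both media. Rdh10 was 1.41-fold higher in DKO after RA (limma log2 fold change 0.48 ± 0.14, adjusted p = 0.00557; 0.48 without replicate 2 of WT after RA) and 1.51-fold higher in serum/LIF (0.61 ± 0.14, adjusted p = 0.00107). The change of this difference with RA was −0.13 ± 0.19 (limma adjusted p = 0.66; −0.13 without replicate 2 of WT after RA, 0.68). With RA, Rdh10 rose 1.62-fold in DKO (0.69 ± 0.14) and 1.74-fold in WT (0.82 ± 0.14), the smallest rise of the 7 genes in WT.

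Dhrs3, which turns retinaldehyde back to retinol, had 5311, 5462 and 5478 normalized counts in DKO after RA, against 8448, 8367 and 7841 in WT after RA. Its serum/LIF values were 60.8, 56.3 and 42.8 in DKO and 18.1, 21.5 and 31.8 in WT. The genotypes did not overlap in either medium, and their order was opposite: DKO was the lower one after RA and the higher one in serum/LIF. Dhrs3 was 1.52-fold lower in DKO after RA (limma log2 fold change −0.60 ± 0.15, adjusted p = 0.00283; −0.59 without replicate 2 of WT after RA) and 2.24-fold higher in DKO in serum/LIF (1.15 ± 0.15, adjusted p = 4.70e-06). The test of the difference between these gave −1.75 ± 0.21 (limma adjusted p = 2.75e-06; −1.74 without that library). Its rise with RA was 102-fold in DKO (6.66 ± 0.15) and 345-fold in WT (8.41 ± 0.15).

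Aldh1a2, the RA-synthesising enzyme, had 180.1, 137 and 148 normalized counts in DKO after RA, against 219, 211 and 255 in WT after RA. The DKO libraries held 102, 141 and 131 in serum/LIF and the WT libraries 68.8, 55.9 and 67.3. As for Dhrs3, DKO lay wholly below WT after RA and wholly above it in serum/LIF. Aldh1a2 was 1.47-fold lower in DKO after RA (limma log2 fold change −0.56 ± 0.18, adjusted p = 0.0123; −0.62 without replicate 2 of WT after RA) and 1.95-fold higher in serum/LIF (0.94 ± 0.18, adjusted p = 0.000172). The call after RA was lost without DKO replicate 2 (−0.48, limma adjusted p = 0.063) and without WT replicate 3 (−0.48, limma adjusted p = 0.0619). With RA, Aldh1a2 in DKO stood at 1.24 times its serum/LIF mean, which did not pass the test (0.32 ± 0.18, limma adjusted p = 0.104), whereas in WT it rose 3.57-fold (1.82 ± 0.18). The DKO groups overlapped, and with libraries scaled to equal totals this comparison did pass (0.55, limma adjusted p = 0.00654). The responses of DKO and WT differed by −1.50 ± 0.25 (limma adjusted p = 5.30e-05; −1.56 without replicate 2 of WT after RA).

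**Figure D2:**
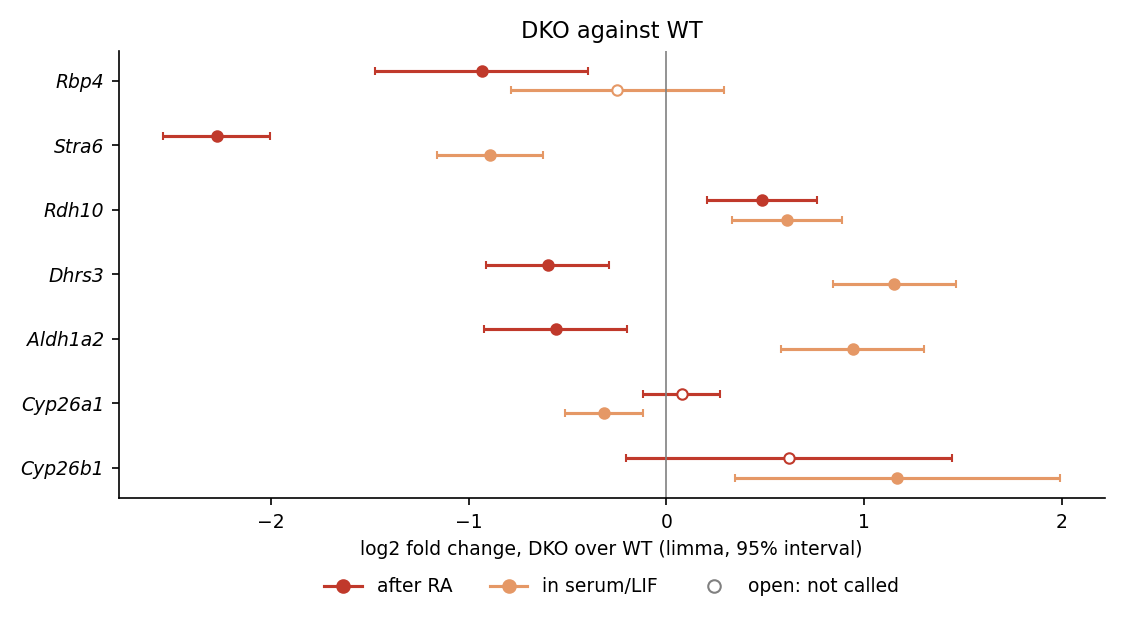
Log2 fold change of DKO over WT after RA (dark) and in serum/LIF (light) for the 7 genes, with 95% intervals from limma; filled points passed an adjusted p of 0.05 and open points did not. Dhrs3 (−0.60 after RA, 1.15 in serum/LIF) and Aldh1a2 (−0.56 and 0.94) lie on opposite sides of 0 in the 2 media, and Stra6 lies furthest left after RA at −2.28.

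Cyp26a1, the main RA-clearing enzyme of the early embryo, had 18965, 19419 and 19291 normalized counts in DKO after RA, against 18035, 18517 and 18138 in WT after RA. Without RA, in serum/LIF, the DKO libraries had 43.6, 58.7 and 58.6 and the WT libraries 57.3, 69.8 and 72.9. After RA the DKO libraries were all above the WT libraries by a margin of 1.05-fold between means, which did not pass limma's test (log2 fold change 0.08 ± 0.09, adjusted p = 0.544; 0.09 without replicate 2 of WT after RA). DESeq2 on the recovered reads put the adjusted p of the same contrast at 0.0471, and the authors' deposited table lists 0.0423. In serum/LIF the genotypes overlapped, and the lower DKO mean passed limma's test (−0.32 ± 0.09, adjusted p = 0.0128) but not edgeR's quasi-likelihood test (adjusted p = 0.113) or DESeq2 (0.121), and it was lost without DKO replicate 1 (−0.18, limma adjusted p = 0.102), WT replicate 2 (−0.28, 0.0583) or WT replicate 3 (−0.25, 0.0736). With RA, Cyp26a1 rose by 8.47 ± 0.09 on the log2 scale in DKO and by 8.08 ± 0.09 in WT. These rises differed by 0.39 ± 0.13 (limma adjusted p = 0.0292; 0.40 without replicate 2 of WT after RA), a call lost in 9 of 21 alternatives.

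Cyp26b1, a second RA-clearing enzyme, had 18579, 19219.9 and 18637 normalized counts in DKO after RA, against 12116, 11892 and 12708 in WT after RA. In serum/LIF its values were 41.3, 30.5 and 18.0 in DKO and 8.59, 21.5 and 9.35 in WT, from 78 reads in the 3 DKO libraries and 39 in the 3 WT libraries. After RA every DKO library lay above every WT library, by 1.54-fold between means, and in serum/LIF the genotypes overlapped. The difference after RA did not pass limma's test over 12 libraries, which uses 1 spread for a gene in all groups (log2 fold change 0.62 ± 0.36, adjusted p = 0.206; 0.60 without replicate 2 of WT after RA, adjusted p = 0.313). It passed when limma was fitted on the RA libraries alone (adjusted p = 7.88e-13), in edgeR's quasi-likelihood test on recovered reads (1.53e-10), in DESeq2 (1.61e-53) and in the authors' deposited table (1.36e-55). In serum/LIF Cyp26b1 was 2.28-fold higher in DKO (1.17 ± 0.36, limma adjusted p = 0.0362), a call lost when any of DKO replicates 1 (0.91, limma adjusted p = 0.114) and 2 (1.12, 0.0946) or WT replicates 1 (0.95, 0.113) and 3 (1.00, 0.116) was left out. Its rise with RA, 628-fold in DKO (9.32 ± 0.36) and 931-fold in WT (9.87 ± 0.36), was the largest of the 7 genes in each genotype. The genotypes' rises differed by −0.55 ± 0.51 (limma adjusted p = 0.469; −0.57 without replicate 2 of WT after RA, 0.512).

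**Figure D3:**
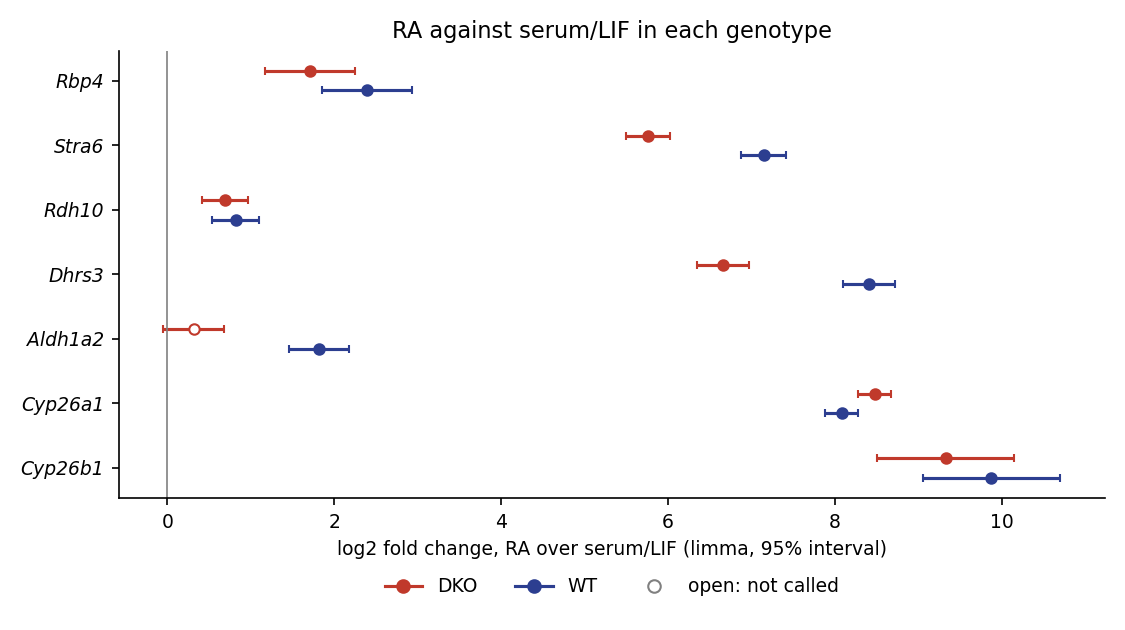
Log2 fold change with RA over serum/LIF in DKO (red) and WT (blue) for the 7 genes, with 95% intervals from limma; the open point (Aldh1a2 in DKO, 0.32) did not pass an adjusted p of 0.05. Stra6 (5.76 in DKO, 7.14 in WT) and Dhrs3 (6.66 and 8.41) have intervals that do not meet, while those of Rdh10 and Cyp26b1 do.

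By count in limma over all 12 libraries, after RA 1 of the 7 genes was higher and 4 were lower in DKO than in WT, where 42.7% of all genes tested were called (22% higher and 20.7% lower). In edgeR 6 of the 7 were called, with Cyp26b1 also higher, where 7099 of the 15750 genes tested were called. All 7 had groups that did not overlap, as did 54.5% of all genes. The median log2 fold change was −0.56 over the 7 genes and 0.01 over all genes. In serum/LIF 4 were higher and 2 lower in DKO (33.2% of all genes called, 17.8% higher and 15.4% lower). There edgeR called 5 of the 7, all but Cyp26a1 and Rbp4, where 5311 of the 15750 genes tested were called. In serum/LIF 4 of 7 did not overlap (43.9% of all genes), and the medians were 0.61 and −0.01. Most genes moved with RA: 78.3% were called in DKO (40.2% higher and 38.2% lower) and 80.6% in WT (41.4% higher and 39.2% lower). A call alone is therefore near the background. Likewise, groups did not overlap for 6 of the 7 genes in DKO (80.3% of all genes) and 7 in WT (81.5% of all genes). Without replicate 2 of WT after RA the 7 genes kept their calls in WT, with log2 fold changes of 0.82 (Rdh10) to 9.89 (Cyp26b1). The medians over the 7 genes were 5.76 in DKO and 7.14 in WT, against 0.04 in each genotype over all genes. The share of calls that were higher with RA was 51.3% in both genotypes, or 62.9% in DKO and 63.1% in WT with libraries scaled to equal totals, which moved the median of all genes to 0.27 in DKO and 0.29 in WT. The genotype difference itself changed with RA for 4 of the 7 genes, 1 upward (Cyp26a1) and 3 downward (Dhrs3, Aldh1a2 and Stra6), where 30.8% of all genes were called (14.8% upward and 16% downward).

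Marker genes of cell types differed between DKO and WT as well. After RA, 12 of 12 pluripotency markers were higher in DKO, or 11 of 12 without replicate 2 of WT after RA. Leaving out that library changed no other marker count given here. Over all genes tested, 22% were higher and 20.7% lower in DKO after RA. Of 10 tested neural progenitor markers 8 were lower and 2 higher, with summed normalized counts of 11659 to 11848 in DKO and 15123 to 15587 in WT. Of 8 neuron markers 7 were lower and 1 higher, summing to 3502 to 3759.9 in DKO and 6768 to 7604 in WT. This list summed higher in serum/LIF, before differentiation, to 21401 to 21855 in DKO and 20273 to 22096 in WT. With RA 1 of its genes rose and 5 fell in DKO (78.3% of all genes called), and 3 rose and 4 fell in WT (80.6%). Its sums therefore cannot be read as amounts of neurons. The 10 fibroblast markers, 5 of them higher, summed to 90184 to 91635 in DKO and 69868 to 73504 in WT. Their median log2 fold change was 0.04, so the sums do not stand for the list as a whole. In serum/LIF, 7 of 12 pluripotency markers were lower and 8 of 10 fibroblast markers were higher in DKO. Over all genes tested, 17.8% were higher and 15.4% lower in that comparison. The fibroblast list summed to 57919.6 to 63624 in DKO and 37153 to 39664 in WT in serum/LIF, before differentiation. Its sums cannot be read as amounts of fibroblasts either. Of the 10 tested neural progenitor markers, 4 were higher and 1 lower in DKO in serum/LIF, with sums of 7220.1 to 7486 in DKO and 4393 to 4505 in WT, and Neurog2 was at 0 in the 3 DKO libraries. Of 7 trophoblast markers, 4 were higher and 0 lower in DKO in serum/LIF, summing to 5305 to 6336 in DKO and 4395 to 4572 in WT. Endoderm markers included Ttr, the carrier partner of RBP4, at 0 reads in all serum/LIF libraries. The part of these markers in the values of the 7 genes was not tested.

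Levels can be set side by side between genes once counts are divided by transcript length. Per kb of transcript, Cyp26a1 reached 10734 ± 131 normalized counts in DKO after RA and 10179 ± 142 in WT, rank 125 and 136 of 16759 genes. Cyp26b1 came second in DKO at 4511 ± 85.0, against 2935 ± 101 in WT, and Dhrs3 next at 2318 ± 39.4, against 3517 ± 141 in WT. In WT these 2 genes stood in the opposite order. Stra6 followed at 514 ± 15.8 in DKO (rank 4992) and 2493 ± 70.0 in WT (rank 888). Rbp4 had 126 ± 8.90 per kb in DKO and 245 ± 52.6 in WT, Rdh10 had 127 ± 16.0 in DKO and 90.2 ± 2.87 in WT, and Aldh1a2 had 68.4 ± 9.95 in DKO and 101 ± 10.4 in WT. Rdh10 and Rbp4 in DKO, and Aldh1a2 and Rdh10 in WT, did not differ beyond their spread. In serum/LIF Rdh10 was the highest of the 7 per kb, at 78.3 ± 8.14 in DKO and 51.8 ± 10.7 in WT, where its spread overlapped that of Rbp4 (46.4 ± 14.1), and Cyp26b1 the lowest, at 7.18 ± 2.79 in DKO, where its spread overlapped that of Stra6 (9.22 ± 1.02), and 3.15 ± 1.74 in WT. Leaving out replicate 2 of WT after RA moved no mean per kb by more than 3.93% and kept the order after RA in WT.

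The 2 clearing isozymes were in a different balance in DKO and WT after RA. Per kb, Cyp26b1 stood at 0.421, 0.425 and 0.415 of Cyp26a1 in DKO, against 0.289, 0.276 and 0.301 in WT. The ratio was higher in every DKO library (mean 0.420 ± 0.00510 in DKO, 0.288 ± 0.0125 in WT; two-sided exact permutation p = 0.1, the smallest that 3 against 3 libraries allow). The Cyp26 genes Cyp26a1, Cyp26b1 and Cyp26c1 together reached 15285 ± 201 per kb in DKO and 13151 ± 122 in WT, 1.16 times as much (exact permutation p = 0.1, with no overlap). Without replicate 2 of WT after RA the WT means were 0.295 for the ratio and 13114 per kb for the sum. Cyp26c1 made up 0.256% of that sum in DKO and 0.286% in WT. In serum/LIF the ratio was 0.254 ± 0.140 in DKO and 0.0839 ± 0.0421 in WT (exact permutation p = 0.2), on few reads. Rdh10 plus Aldh1a2 per kb summed to 195 ± 23.2 in DKO and 191 ± 8.90 in WT after RA (exact permutation p = 0.8), or 195 in WT without replicate 2. In serum/LIF the sum was 133 ± 11.5 in DKO and 80.0 ± 7.70 in WT, with no overlap (exact permutation p = 0.1). After RA the sum joins opposite differences, as Rdh10 was higher in DKO (127 against 90.2 in WT) and Aldh1a2 lower (68.4 against 101). RA synthesis was not measured.

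**Figure D4:**
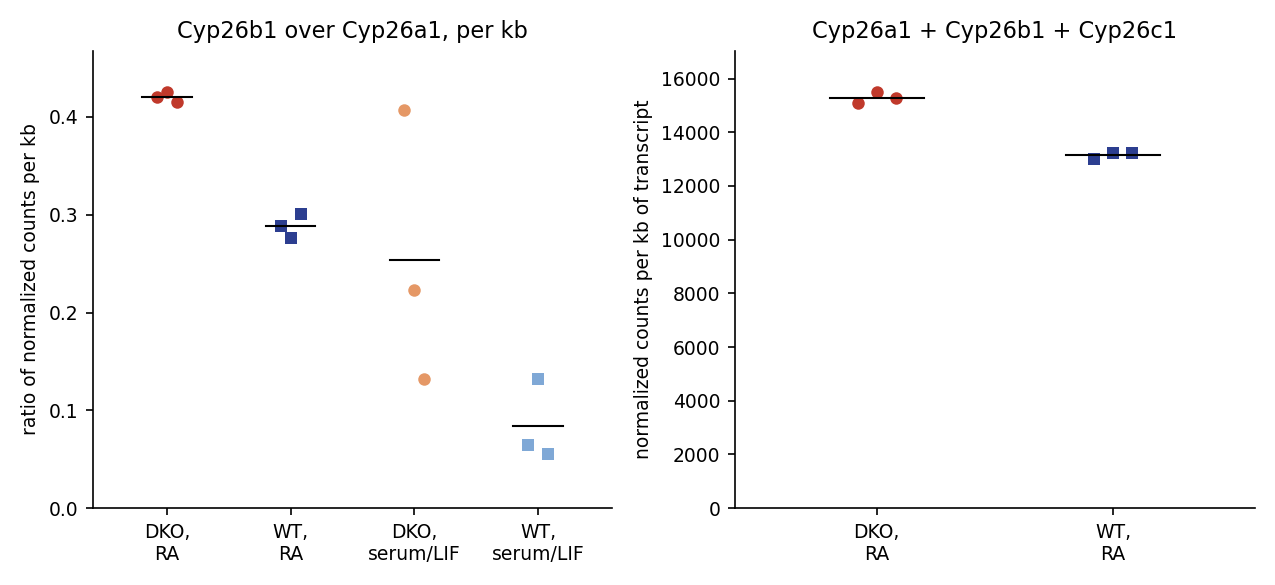
Left, normalized counts per kb of Cyp26b1 over those of Cyp26a1 in each library of the 4 groups; right, the sum of Cyp26a1, Cyp26b1 and Cyp26c1 per kb after RA. Points are libraries and bars are means of 3: the ratio is 0.415 to 0.425 in DKO and 0.276 to 0.301 in WT after RA.

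The rest of the pathway was described from a list of 49 genes for receptors, binding proteins, enzymes and carriers of retinoids, of which 43 were in the table and 39 were tested. After RA 6 were higher and 14 lower in DKO (42.7% of all genes called), and in serum/LIF 3 were higher and 12 lower (33.2% of all genes called). Without replicate 2 of WT after RA, 5 were higher and 12 lower after RA. Retsat, Rxrb and Stra6l lost their calls. With RA 23 rose and 10 fell in DKO (78.3% of all genes called), and 22 rose and 13 fell in WT (80.6% of all genes called). The median log2 fold change of DKO over WT was −0.06 after RA and −0.02 in serum/LIF. The genes with the smallest adjusted p after RA were mostly lower in DKO. Crabp1, a cytosolic RA-binding protein, averaged 476 ± 88.7 normalized counts in DKO and 2992 ± 288 in WT (limma log2 fold change −2.66 ± 0.10), and Fabp5, a fatty acid-binding protein that also binds RA, 529 ± 34.1 in DKO and 1063 ± 96.0 in WT, 2.01-fold less in DKO. The retinaldehyde-binding protein gene Rlbp1 averaged 33.7 ± 5.79 in DKO and 154 ± 27.3 in WT (−2.15 ± 0.19), the reductase gene Akr1b8 80.5 ± 8.05 in DKO and 229.5 ± 13.7 in WT (−1.50 ± 0.13), and the lipoprotein lipase gene Lpl 535 ± 40.7 in DKO and 1010 ± 34.6 in WT (−0.92 ± 0.08). Rarg, an RA receptor, was higher in DKO, at 2707 ± 34.8 in DKO and 1164 ± 37.4 in WT (1.22 ± 0.04). Each of these 6 had a limma adjusted p of 3.39e-09 or less. Without replicate 2 of WT after RA they all kept their calls, with log2 fold changes of −2.60 (Crabp1) to 1.24 (Rarg). In serum/LIF all 6 had lower means in DKO. Crabp1 averaged 373 in DKO and 1002 in WT, Rlbp1 88.7 and 283, and Akr1b8 274 and 625. Fabp5 averaged 1057 and 1229, Lpl 548 and 736, and Rarg 5052 and 6659, so Rarg reversed with RA. The interaction test passed for Rarg (1.62, limma adjusted p = 7.50e-15), Crabp1, Fabp5 and Lpl. It did not for Rlbp1 (limma adjusted p = 0.187) or Akr1b8 (0.182).

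Isozymes and partners of the 7 genes were read one by one. Aldh1a1, a paralog of Aldh1a2, averaged 65.1 ± 15.5 normalized counts in DKO and 70.8 ± 21.2 in WT after RA, and 6.84 ± 5.91 in DKO and 1.34 ± 1.17 in WT in serum/LIF. Aldh1a3, a further RA-synthesising enzyme, was higher in DKO after RA, at 14.1 ± 2.59 against 3.07 ± 2.03 in WT (1.98 ± 0.50, limma adjusted p = 0.00257; 1.82 without replicate 2 of WT after RA). That rests on 46 reads in DKO and 10 in WT. Its serum/LIF mean was also higher in DKO, at 26.0 ± 4.27 against 10.5 ± 1.07 in WT. The change of its genotype difference with RA did not pass (0.76, limma adjusted p = 0.452). Cyp26c1 had 68.3 ± 10.6 in DKO and 65.6 ± 8.43 in WT after RA (0.05 ± 0.35, limma adjusted p = 0.921), and it rose with RA by 2.84 ± 0.35 in DKO and 2.80 ± 0.35 in WT on the log2 scale. Lrat, which stores retinol as esters, had 52.5 ± 3.87 in DKO and 30.2 ± 13.1 in WT after RA (0.87 ± 0.63, limma adjusted p = 0.283). Ttr had 121 ± 17.4 in DKO and 162 ± 26.0 in WT after RA (−0.41 ± 0.47, limma adjusted p = 0.507). Without replicate 2 of WT after RA, Cyp26c1, Lrat and Ttr again did not pass (limma adjusted p = 0.994, 0.214 and 0.741).

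**Figure D5:**
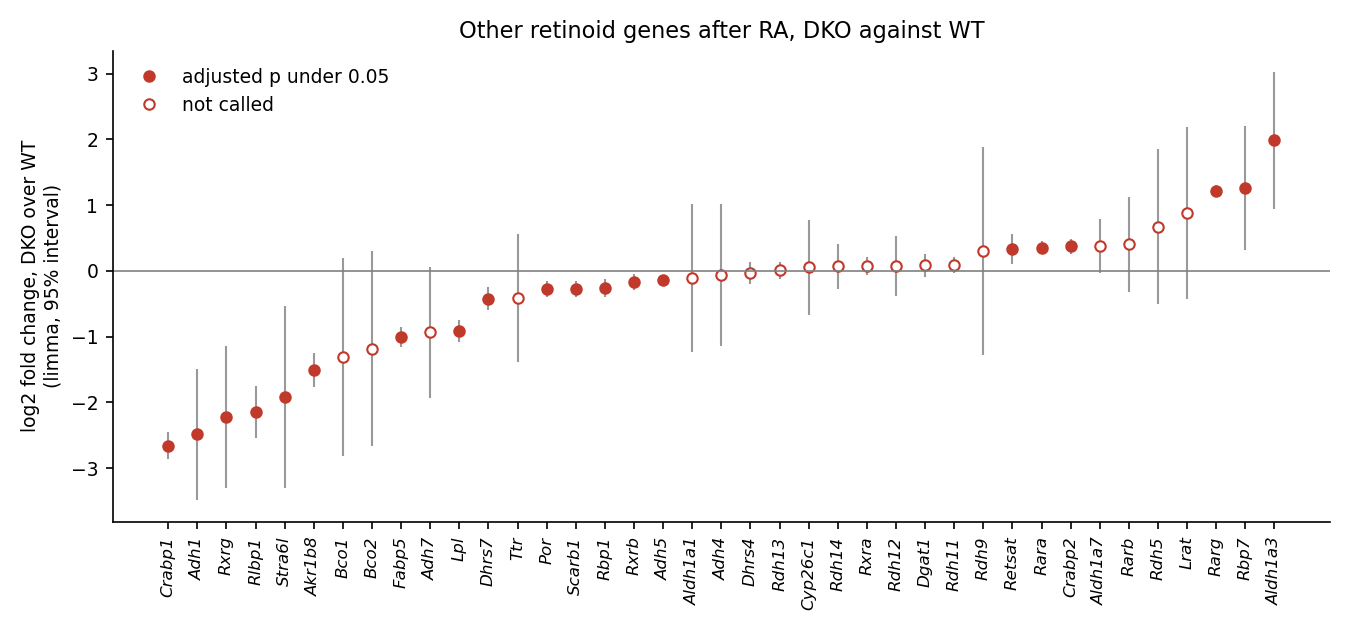
Log2 fold change of DKO over WT after RA for the 39 tested genes of the retinoid list, in order of size, with 95% intervals from limma; filled points passed an adjusted p of 0.05. Crabp1 is lowest at −2.66 and Aldh1a3 highest at 1.98, and 14 filled points lie below 0 and 6 above.

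Across the 12 libraries, the genes most like each member were sought by the root mean square difference of centred log2 profiles, among 12353 candidates. Homeobox genes of the Hox clusters came nearest to the Cyp26 genes: Hoxb4 (0.47) and Hoxb8 (0.50) to Cyp26a1, and Hoxb5 (0.62) and Hoxc4 (0.80) to Cyp26b1. The transcription factor genes Nr2f2 (0.33) and Tbx2 (0.51) were nearest to Dhrs3, and Osr1 (0.58) and Ecm1 (0.68) to Stra6. A like profile over the 12 libraries does not mean a like difference between genotypes. Ecm1, an extracellular matrix protein gene, averaged 8087 normalized counts in DKO and 14655 in WT after RA. In serum/LIF it averaged 135 in DKO and 110 in WT, the order opposite to that of Stra6. After RA Tbx2 averaged 4616 in DKO and 3501 in WT, opposite to Dhrs3, while Nr2f2 had the order of Dhrs3 (3273 in DKO and 4181 in WT). Nearest to Rdh10 were Eps8l2 (0.13) and Elapor2 (0.13), to Aldh1a2 the transcription factor genes Sox11 (0.17) and Sall2 (0.18), and to Rbp4 the genes Nos1ap (0.22) and Col22a1 (0.29).

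Neighbouring genes were read for the same contrasts. Islr, whose end nearest to Stra6 is 2266 bases away, averaged 32.6 normalized counts in DKO and 217 in WT after RA, and 1.53 in DKO and 5.21 in WT in serum/LIF. It was lower in DKO in both media (limma log2 fold change −2.71 after RA, adjusted p = 0.000215; −1.80 in serum/LIF, adjusted p = 0.011), the direction seen for Stra6. The serum/LIF call of Islr rests on values near 0 that overlapped, 4.59, 0 and 0 in DKO against 5.73, 4.30 and 5.61 in WT. Ccdc33, 15251 bases to the other side of Stra6, did not pass either test (−1.33, limma adjusted p = 0.0822; 1.54, 0.0533). Aqp9, an aquaporin gene 52499 bases from Aldh1a2, had 0.632 in DKO and 53.2 in WT after RA (−5.20). In serum/LIF, where Aldh1a2 was higher in DKO, Aqp9 was lower, at 4.61 in DKO and 18.3 in WT (−1.69, limma adjusted p = 0.0404). Exoc6b, 24577 bases from Cyp26b1, was higher in DKO after RA (0.39) and in serum/LIF (0.44), and so was Myof, 197499 bases from Cyp26a1 (0.52 and 1.04). On their other sides, Dysf, 360354 bases from Cyp26b1, stood at −0.04 after RA (limma adjusted p = 0.788) and 0.27 in serum/LIF (0.0462), and Cyp26c1 beside Cyp26a1 did not pass either test (0.05 and 0.02). Vps13d, 44412 bases from Dhrs3, was lower in DKO in serum/LIF (−0.34, limma adjusted p = 1.80e-05), where Dhrs3 was higher, and did not pass after RA (−0.11, 0.0975). Pramel13, 484612 bases to its other side, stood at −0.49 after RA and −0.79 in serum/LIF. Stau2, 96259 bases from Rdh10, was higher in both media (0.39 after RA and 0.36 in serum/LIF), while Rpl7, 1448 bases away, stood at −0.09 after RA (limma adjusted p = 0.0438) and −0.05 in serum/LIF (0.281). Beside Rbp4, Cep55 was lower after RA (−0.22, limma adjusted p = 0.00104) and did not pass in serum/LIF (0.06, 0.352), and Fra10ac1 passed in neither medium, nor did Polr2m beside Aldh1a2. Without replicate 2 of WT after RA the call of Rpl7 after RA was lost (−0.06, limma adjusted p = 0.174), and the other neighbours kept theirs.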

How the data were processed

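RNA of TT2 cells was sequenced in 12 libraries, grouped by the sample titles and genotype labels. Total RNA (ISOGEN) gave paired-end reads, per the labels' protocols, although the molecule field of the labels reads genomic DNA. Build mm10, STAR 2.7.11b, Trim Galore 0.6.10, Subread 2.0.6 with featureCounts, and DESeq2 1.44.0 were used, per the submitters' processing notes. Strand and multi-mapping settings are not stated there. The deposited library columns hold a signal, whole reads divided by a library's size factor (100% of values within 0.01 of a whole read). Per the file headers, the authors' DESeq2 log2 fold changes and p-values were deposited beside them, with a score, the Wald statistic, that was not used.

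The 7 genes and all lists were chosen with earlier results of these data known. The listed members were all named, and other retinoid genes were named when they were among the 6 with the smallest adjusted p after RA or were isozymes or partners of the members. Genes of like pattern were the 2 nearest to each member, and neighbours were taken by position. Values were taken as log2(value + 1), which understates changes of low genes, and genes with 10 or more in at least 3 libraries were tested. The remaining 2151 genes were not. limma 3.58.1 in R 4.3.3 (trend and robust) fitted all 12 libraries with 1 mean per group and 8 residual degrees of freedom. Calls were made where the adjusted p (Benjamini-Hochberg, over all genes tested) was under 0.05. The fold changes, p-values and standard errors (SE) are limma's unless another tool is named. A difference between 2 groups without a scale is a ratio of means. The alternatives were edgeR 4.0.16 and DESeq2 1.42.0 on recovered reads, other pseudocounts, filters and scalings, a replicate block, the compared groups alone, and each library left out. Per-kb values use GENCODE vM21 transcript lengths, found for 93.6% of genes. The test was checked on counts simulated from the WT serum/LIF means with 1 dispersion per gene. That check holds no rise with RA, so it does not cover genes whose spread differs between media, such as Cyp26b1. Replicates of a group differed (chi-square over degrees of freedom 3.28 to 14.9), so none was 1 library deposited again. Intervals of read counts cover counting error only, because without molecular identifiers a read is not a molecule. They also take the mates of a read pair as independent where both were counted.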

Additional observations from a re-analysis of the deposited data

Results flagged for a closer look

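In 4 of the 7 genes the DKO against WT difference after RA was not the one in serum/LIF by limma's interaction test. That test called 30.8% of all genes tested. For Dhrs3 the log2 fold change of DKO over WT was −0.60 after RA and 1.15 in serum/LIF, a difference of −1.75 (adjusted p = 2.75e-06), and for Aldh1a2 it was −0.56 and 0.94, a difference of −1.50 (adjusted p = 5.30e-05). For Stra6 both were below 0, at −2.28 after RA and −0.89 in serum/LIF, a difference of −1.38 (limma adjusted p = 3.01e-06). For Cyp26a1 they were 0.08 and −0.32, a difference of 0.39 (limma adjusted p = 0.0292).

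The Dhrs3, Aldh1a2 and Stra6 differences kept their calls under all 21 alternatives run. The Cyp26a1 difference lost its call in 9 of 21.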

How the results depend on the processing

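The 35 log2 fold changes of the 7 genes were recomputed under up to 22 alternatives. Of the 763 values, 736 kept their direction and their side of the threshold, 22 lost the call, 5 gained it and 0 changed direction. Besides the calls given above, the Cyp26b1 difference in serum/LIF was lost with the compared groups alone (limma adjusted p = 0.0514), as was that of Cyp26a1 (0.343). The Cyp26a1 interaction was lost in DESeq2 (0.0535) and on leaving out 8 of the 12 libraries in turn (limma adjusted p 0.0517 to 0.0791). Leaving out 1 library at a time gave 4 to 5 genes called after RA and 4 to 6 in serum/LIF between genotypes, 6 with RA in DKO and 7 in WT, and 3 to 4 in the interaction.

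Replicate numbers recur in every group. Deviations of same-numbered libraries correlated at −0.03 to 0.05, and 5 of 6 libraries in the serum/LIF comparison and 4 of 6 after RA, but 0 of 6 in each RA comparison, were most like the library with their own number. The replicate block changed no call of the 7 genes; with it the limma adjusted p was 2.16e-12 for Stra6 and 0.00661 for Dhrs3 after RA.

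Reads were few in serum/LIF: Cyp26b1 had 78 in DKO (95% Poisson interval 61.7 to 97.3) and 39 in WT (27.7 to 53.3), and Stra6 had 74 in DKO (58.1 to 92.9). The cause of the lost and gained calls was not tested.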
